A study of Mus musculus with 41 samples.

Results

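The genes Atf4, Ddit3, Trib3, Asns, Chac1, Sesn2, Slc7a11, Phgdh, Psat1 and Shmt2 belong to the amino acid stress response and the serine and glycine synthesis pathway. They were picked by symbol, each symbol was found on 1 row of every expression file, and they are 10 of the 24028 gene symbols measured. Expression was read as FPKM (sequenced fragments scaled by transcript length and by the mapped total of the library) in 13 RNA-seq libraries of mouse androgenetic haploid embryonic stem cells (AG-haESCs), which carry a single genome of sperm origin. The study behind these libraries asked which culture medium keeps paternal imprints stable, and expression was recorded along with methylation and chromatin, which were not analysed here.

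All lines were labelled C57BL/6, and no library came from an animal, so no age applies. The paper lists the line TSa2i-14 as C57BL/6/actin-EGFP and the line TSa2i-C57 as C57BL/6. The wild-type line 2i-14 was kept in 2i/L and sampled at passages 18, 39 and 50 (p18, p39, p50). 2i/L combined DMEM, serum, LIF, the Mek1/2 inhibitor PD0325901 and the Gsk3β inhibitor CHIR99021, with added L-glutamine, non-essential amino acids, nucleosides and β-mercaptoethanol. The wild-type lines TSa2i-14 (p22, p47, p54) and TSa2i-C57 (p9, p58) were made with the two-step TSa2i/L protocol and maintained in SF/a2i/L, a serum-free mix of DMEM/F12 and Neurobasal with N2, B27, Glutamax, LIF, the Src inhibitor CGP77675 and CHIR99021. 2i-O48 lacked the H19-DMR and the IG-DMR, the differentially methylated control regions of 2 paternally imprinted loci, and 2i-O48-TKO additionally lacked the gene H19. Both were sampled once in 2i/L, at a passage the labels do not give. Each of these lines, and 2i-14 as well, was also sampled once after 5 passages in SF/a2i/L; such cultures are called switched here. The libraries of 1 line are passages of the same culture and not separately derived lines, so p-values measure the spread between passages and a few lines. All cells were grown on fibroblast feeders, and each library was amplified from a small number of sorted haploid cells.

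When a cell runs short of an amino acid or is otherwise stressed, eIF2 kinases phosphorylate the initiation factor eIF2, which lowers general protein synthesis while translation of the transcription factor ATF4 goes up. ATF4 then switches on genes that make, import and charge amino acids, together with the regulators Ddit3 (the transcription factor CHOP) and Trib3 (a pseudokinase that restrains ATF4). Phgdh and Psat1 catalyse the opening steps of serine synthesis from a glycolytic intermediate, and Shmt2 turns serine into glycine and a folate-bound one-carbon unit in mitochondria. ATF4 is regulated largely through translation, so the mRNA level of Atf4 is not a measure of the protein.

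ATF4 binds as a dimer with C/EBP proteins to the CARE element, searched here as TGATGNAA on both strands in RefSeq promoter windows of the GRCm38.p6 build, from 250 bases before to 50 bases after each transcription start. All 10 genes had a window, Psat1 having 2, and 4 genes held the motif, while 3.97% of all 32851 windows did. The parts of the windows that carry a match are shown, with the matches in capitals, 5′ to 3′ on the strand of the gene.
Chac1 (chr2:119350992-119351091, plus strand): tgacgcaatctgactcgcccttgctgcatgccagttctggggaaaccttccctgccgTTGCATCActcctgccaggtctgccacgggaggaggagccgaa
Slc7a11 (chr3:50443614-50443713, minus strand): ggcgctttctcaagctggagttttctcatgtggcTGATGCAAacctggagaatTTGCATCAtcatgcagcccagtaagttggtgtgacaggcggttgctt
Asns (chr6:7693210-7693309, minus strand): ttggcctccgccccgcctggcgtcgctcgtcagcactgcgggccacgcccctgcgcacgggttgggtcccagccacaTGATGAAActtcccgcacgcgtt
Trib3 (chr2:152344031-152344060, minus strand): agattagctcaggtTTACATCAgccgggcg
The Slc7a11 window held 2 matches on opposite strands, starting 66 and 47 bases before the start, and 0.07% of all windows held 2 or more. The Asns match began 23 bases before the start and the Chac1 match 193 bases before it on the other strand. The Trib3 match lay on the other strand at base 15 counted from the RefSeq start. Bases just after that start were not found in the GENCODE vM1 transcripts of Trib3, unlike those of the other genes, so its start is uncertain. These are letter matches and not measured binding sites, and motifs outside the windows were not searched.

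In the NCBIM37 build (mm9), to which the authors mapped the reads, all 10 were annotated as protein-coding genes. Ddit3 (chr10:126727830-126733344) and Shmt2 (chr10:126954195-126959491) lie on the same chromosome, as do Trib3 (chr2:152163158-152169768) and Chac1 (chr2:119176965-119180117), and Slc7a11 (chr3:50168858-50247535) and Phgdh (chr3:98117093-98143913). Atf4 lies at chr15:80085614-80087970, Asns at chr6:7625169-7643254, Sesn2 at chr4:132047947-132066416 and Psat1 at chr19:15979168-16021827. The last 68 bases of Ddit3 overlap Mars, a tRNA synthetase gene on the opposite strand, and neither the labels nor the methods say that strand was used. Sesn2 holds the noncoding transcript Gm12981 within it on the same strand over 6089 bases, and Psat1 holds the pseudogene Gm3329 over 556 bases on the opposite strand; Shmt2 shares 14 bases with Ndufa4l2, and Ddit3 also shares 15 bases with another noncoding transcript at its start. How reads in these stretches were assigned is not given in the sources used here, so the values of these 4 genes are uncertain to that extent. Mars itself was not called in any comparison (adjusted p = 0.824, limma, for TSa2i/L against 2i/L and 0.356 after the switch).

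Every library had the 8 pluripotency markers at 10.7 FPKM or more, and 9258 to 10320 genes reached 1 FPKM. The FPKM tables state no read number. From the spacing of low values, the libraries held about 12700000 to 20100000 fragments, with 2i-14 p50, 2i-O48, 2i-O48-TKO and the 3 switched cultures at 16900000 or more and the others at 16400000 or fewer. The switched 2i-14 library stood apart with a summed FPKM of 2146932, against 651115 to 871848 in the others. Fibroblast RNA also differed: the sum of 15 fibroblast markers reached 151 FPKM in TSa2i-14 p54, 75.6 FPKM for 2i-14 p39 and 47.8 FPKM for TSa2i-C57 p58, and stayed between 2.03 and 12.0 FPKM in the other 10 libraries, where up to 9 of the 15 were at 0. The part of these differences in the results was not tested, and the results are given below without those libraries where a call changes. These are bulk samples, so more cells of one state and more RNA per cell cannot be told apart.

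**Figure D1:**
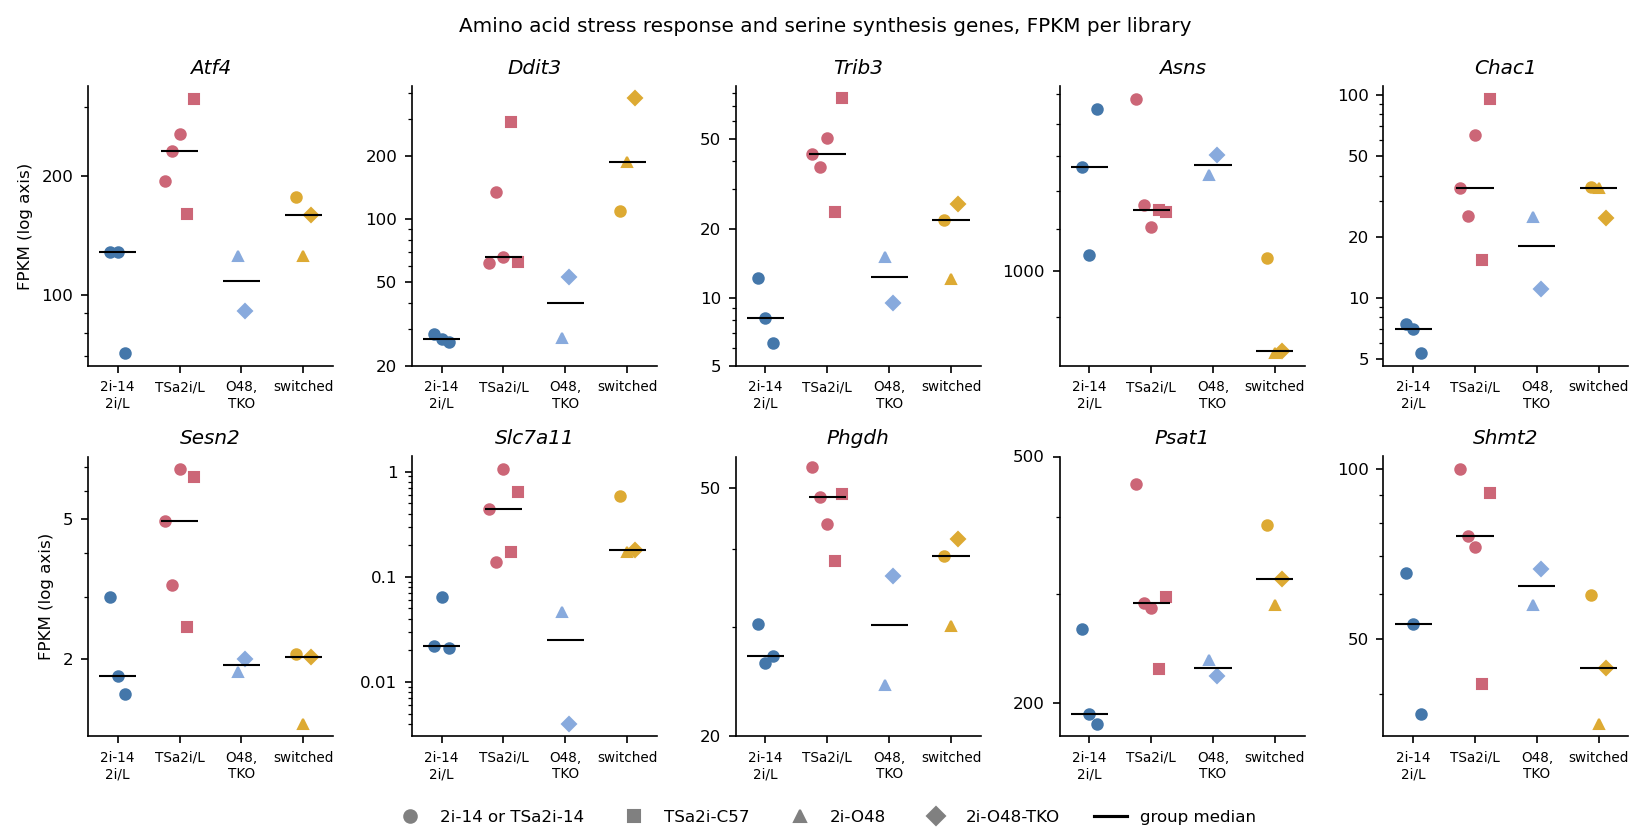
FPKM of the 10 genes in each of the 13 libraries, on a log axis that differs between panels; each point is a library, shaped by cell line, and each line marks the median of its group (2i-14 in 2i/L, n = 3; TSa2i/L, n = 5; 2i-O48 and 2i-O48-TKO in 2i/L, n = 2; switched to SF/a2i/L, n = 3). The TSa2i/L points of Atf4, Ddit3, Trib3, Chac1, Slc7a11 and Phgdh lie above all 2i-14 points, and those of Asns overlap them.

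To ask how the medium relates to these genes, the 5 wild-type TSa2i/L libraries were compared with the 3 libraries of 2i-14 in 2i/L by limma on log2(FPKM + 1). Medium and cell line cannot be told apart here, because no line was grown under both protocols from derivation. Of 9 genes tested, 5 were higher in TSa2i/L at an adjusted p under 0.05 and none was lower. Of all 10387 genes tested, 7.57% were called in either direction and 5.72% were called higher. The median change of the 9 genes was 0.85 on the log2 scale, against 0.07 over all genes tested. A count that needs no model asked for all TSa2i/L values above all 2i-14 values. It was met by 6 of the 10 genes: Atf4, Ddit3, Trib3, Chac1, Phgdh and Slc7a11. Of all genes tested 11.8% met it, a share that leaves out Slc7a11, which was too low for the main fit.

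All 3 regulators were higher in TSa2i/L. Atf4 was 128 FPKM at p18, 128 at p39 and 71.3 at p50 in 2i-14, and 194, 231 and 255 FPKM in TSa2i-14 (p22, p47, p54) and 161 and 314 in TSa2i-C57 (p9, p58). The groups did not overlap, with means of 109 ± 32.9 FPKM (SD, n = 3) and 231 ± 58.6 FPKM (SD, n = 5), and the change was 1.09 on the log2 scale (SE 0.25, adjusted p = 0.0238, limma).

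Ddit3, which encodes the pro-apoptotic transcription factor CHOP, was 28.3, 26.8 and 26.0 FPKM in 2i-14 and varied by less than any other gene of the set between its passages. It was 61.9, 134 and 66.3 FPKM in TSa2i-14 and 290 and 62.7 FPKM in TSa2i-C57. The lowest TSa2i/L value was above the highest 2i-14 value, and the early TSa2i-C57 library was far above the rest. Means were 27.02 ± 1.21 FPKM (SD, n = 3) and 123 ± 98.2 FPKM (SD, n = 5), a log2 change of 1.85 (SE 0.44, adjusted p = 0.0288, limma).

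Trib3 was 12.1, 8.09 and 6.33 FPKM in 2i-14, and 42.8, 37.8 and 50.3 FPKM in TSa2i-14 and 23.8 and 75.6 FPKM in TSa2i-C57. The lowest TSa2i/L library, TSa2i-C57 p9, was still well above the highest 2i-14 library. The log2 change was 2.202 (SE 0.32, adjusted p = 0.00287, limma), and the call held under all alternatives that were run, with adjusted p between 0.0012 and 0.0318. Trib3 is itself known as a target of both ATF4 and CHOP.

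The 4 stress effectors differed among themselves. Chac1, an enzyme that breaks down glutathione, showed the largest log2 change of the 9 genes. It was 7.41, 6.99 and 5.34 FPKM in 2i-14, and 34.8, 25.4 and 63.3 FPKM in TSa2i-14 and 15.4 and 95.7 FPKM in TSa2i-C57. The groups did not overlap, although the TSa2i/L values spanned 6.22-fold, and the log2 change was 2.39 (SE 0.47, adjusted p = 0.0126, limma).

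Slc7a11, the cystine importer of the xCT exchanger, was close to the detection limit. It was 0.0222, 0.0647 and 0.0210 FPKM in 2i-14, which corresponds to about 2.83, 9.38 and 3.68 fragments. It was 0.444, 0.137 and 1.06 FPKM in TSa2i-14 and 0.172 and 0.637 FPKM in TSa2i-C57, between 20.2 and 157 fragments. All TSa2i/L values exceeded all 2i-14 values, but the gene never passed the filter of 1 FPKM in enough libraries. It was thus not tested in the main fit and no fold is given. Without the filter it was tested, and 2 of the 10 genes were called there. Its promoter window was the one with 2 CARE matches.

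Asns, which makes asparagine and is a classical ATF4 target, was the most abundant of the 10 per length in every library. It was 1268, 1037 and 1448 FPKM in 2i-14, and 1483, 1162 and 1107 FPKM in TSa2i-14 and 1149 and 1144 FPKM in TSa2i-C57. The groups overlapped, and the log2 difference was -0.04 (95% interval -0.34 to 0.26, adjusted p = 0.892, limma). The interval does not reach the changes estimated for Atf4, Ddit3, Trib3 or Chac1. Of the 4 genes with a CARE match in the window, Chac1 and Trib3 were thus called higher and Asns was not called. Slc7a11 was not tested in the main fit. Atf4, Ddit3 and Phgdh were called higher without a match in their windows.

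Sesn2, an mTORC1 inhibitor that binds leucine, was 2.99, 1.78 and 1.58 FPKM in 2i-14, and 4.91, 3.24 and 6.91 FPKM in TSa2i-14 and 2.45 and 6.55 FPKM in TSa2i-C57. Only TSa2i-C57 p9 fell within the range of 2i-14, and the log2 difference of 0.85 (SE 0.29) did not pass (adjusted p = 0.103, limma). Without TSa2i-C57 p9 it did, at 1.02 and an adjusted p of 0.0432 (limma). Of 18 alternatives run for Sesn2, 2 passed, with adjusted p from 0.0288 to 0.594 (limma). Its lowest difference, 0.46, came without the 3 libraries with the most fibroblast RNA.

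Of the 3 serine and glycine genes, Phgdh was called. Phgdh, the enzyme that commits carbon to serine synthesis, was 30.3, 26.2 and 26.9 FPKM in 2i-14, and 54.02, 48.4 and 43.9 FPKM in TSa2i-14 and 38.2 and 48.9 FPKM in TSa2i-C57. The groups did not overlap and both were narrow (27.8 ± 2.19 and 46.7 ± 5.95 FPKM, SD, n = 3 and n = 5), with a log2 change of 0.72 (SE 0.16, adjusted p = 0.0213, limma).

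Psat1, the aminotransferase after Phgdh, was 264, 192 and 185 FPKM in 2i-14, and 451, 290 and 285 FPKM in TSa2i-14 and 227 and 297 FPKM in TSa2i-C57. Only TSa2i-C57 p9 lay within the range of 2i-14, and the log2 difference of 0.52 (SE 0.21) did not pass (adjusted p = 0.159, limma). Shmt2 was 65.4, 53.0 and 36.9 FPKM in 2i-14, and 99.8, 76.0 and 72.6 FPKM in TSa2i-14 and 41.6 and 90.6 FPKM in TSa2i-C57. Again TSa2i-C57 p9 alone overlapped 2i-14, and the log2 difference of 0.53 (SE 0.28) did not pass (adjusted p = 0.285, limma).

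The calls depended on single libraries. Leaving out 1 library at a time left between 2 and 6 genes called: 2 without 2i-14 p50 or without TSa2i-14 p47, 3 without 2i-14 p39 and 6 without TSa2i-C57 p9. Calls over all genes moved as well, from 786 of 10387 to 431 of 10292 without 2i-14 p50 and 440 of 10208 without TSa2i-14 p47. They were 299 of 10263 without 2i-14 p39 and 682 of 10283 without TSa2i-C57 p9. Atf4 had an adjusted p of 0.0809 without 2i-14 p50 and 0.0558 without TSa2i-14 p47. Ddit3 had one of 0.0623, 0.0822 and 0.0809 without 2i-14 p18, p39 and p50 and of 0.0703 without TSa2i-14 p47, and of 0.0568 after median centring of the libraries. Phgdh had 0.0913 and 0.0636 without 2i-14 p39 and p50 and 0.0526 without TSa2i-14 p47 (all limma). Without the 3 libraries with the most fibroblast RNA, Trib3 and Chac1 stayed called, with log2 changes of 1.83 and 1.77, while Atf4 (1.01, adjusted p = 0.122), Ddit3 (2.27, 0.0503) and Phgdh (0.68, 0.256) did not. Over all genes, 137 of 9732 were called without those 3 libraries. With the fibroblast markers as a covariate, 5 of the 9 genes were called, and 784 of 10387 over all genes.

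**Figure D2:**
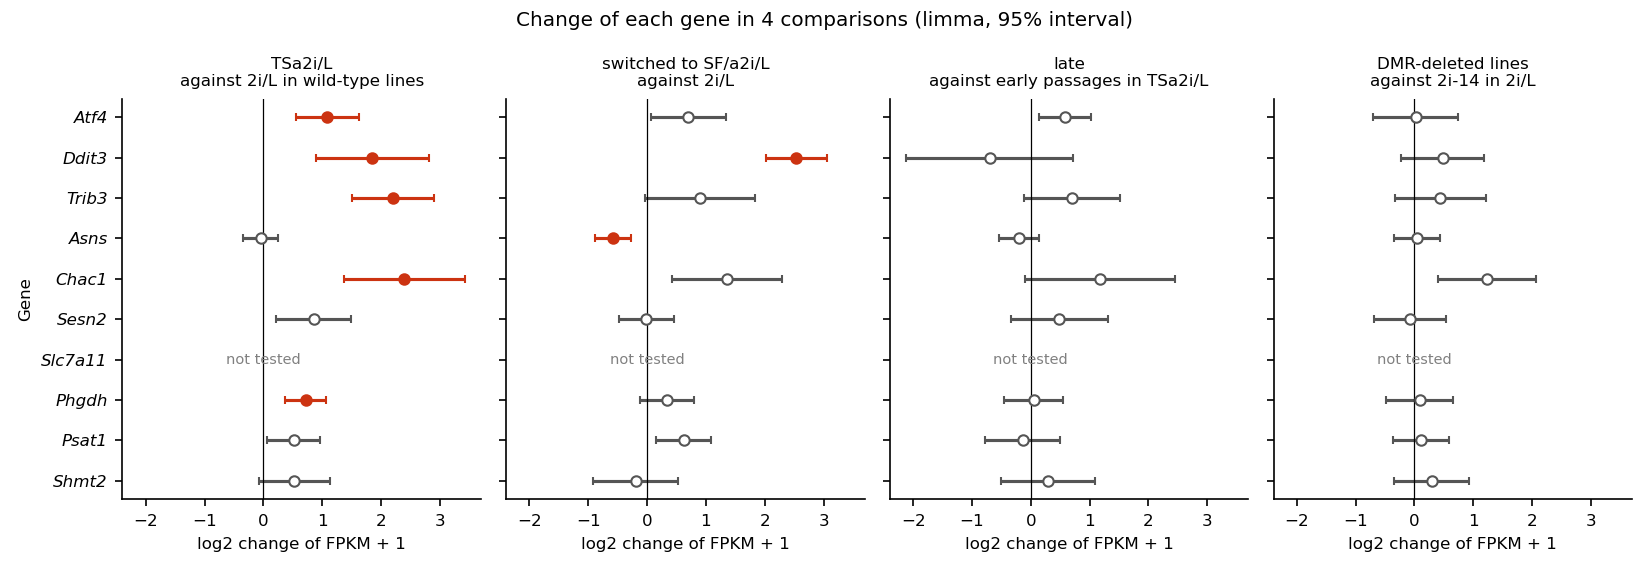
Log2 change of FPKM + 1 for each gene in 4 comparisons, with 95% intervals from limma; filled red points have an adjusted p under 0.05 over all genes tested, and Slc7a11 was too low to be tested. In the first panel 5 points are filled and all lie to the right of 0; in the second only Ddit3 (2.53) and Asns (-0.58) are filled; in the passage and deletion panels none is.

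Most other known targets of ATF4 and CHOP were also higher in TSa2i/L. Of 18 listed, 17 were tested, 12 were higher in TSa2i/L and none was lower, with a median log2 change of 1.15. Atf3, a stress-induced transcription factor, had the largest change at 2.54 (SE 0.40, adjusted p = 0.00398, limma), from 0.222 to 2.25 FPKM in 2i-14 to 6.54 to 23.1 FPKM in TSa2i/L. Nupr1, a small stress-induced chromatin protein, changed by 2.45 (SE 0.27, adjusted p = 0.000602, limma), from 99.3 to 198 FPKM in 2i-14 to 614 to 1364 FPKM in TSa2i/L. Gpt2, the mitochondrial alanine aminotransferase, changed by 1.67 (SE 0.23, adjusted p = 0.00206, limma). The count ranged from 8 without 2i-14 p39 to 13 without TSa2i-C57 p9 and was 3 of 16 without the 3 libraries with the most fibroblast RNA.

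Amino acid transporters followed in part, with 4 of 9 tested higher, none lower and a median log2 change of 0.80. Slc3a2, the heavy chain that xCT and the LAT transporters share, was 117 to 132 FPKM in 2i-14 and 237 to 297 FPKM in TSa2i/L (log2 change 1.10, SE 0.13, adjusted p = 0.00088, limma). Slc1a4, a carrier of alanine, serine and cysteine, changed by 1.00 (adjusted p = 0.00734, limma) and Slc38a1, a glutamine carrier, by 0.91 (adjusted p = 0.022, limma). Without the 3 libraries with the most fibroblast RNA 1 of 9 was called, and without 2i-14 p39 or without 2i-14 p50 there were 2.

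Of the other serine, glycine and folate enzymes, 2 of 15 tested were higher and 1 was lower (median log2 change 0.10). Psph, which completes serine synthesis after Phgdh and Psat1, was 80.5 to 88.4 FPKM in 2i-14 and 158 to 186 FPKM in TSa2i/L (log2 change 1.04, SE 0.13, adjusted p = 0.000921, limma). Mthfd2, the mitochondrial folate enzyme that acts after Shmt2, changed by 0.79 (SE 0.18, adjusted p = 0.0251, limma). Gcsh, the carrier protein of the glycine cleavage system, was the lower one, at -0.55 (SE 0.15, adjusted p = 0.0431, limma).

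Of 9 enzymes for other non-essential amino acids, 2 were higher and none lower (median 0.21). Both belong to proline synthesis: Pycr1 changed by 1.05 (SE 0.17, adjusted p = 0.00469, limma) and Aldh18a1 by 0.80 (SE 0.21, adjusted p = 0.0417, limma). Cytosolic tRNA synthetases known as ATF4 targets had a median of 0.49, with 1 of 12 called, Sars, the seryl-tRNA synthetase (0.90, SE 0.18, adjusted p = 0.0131, limma). For the other cytosolic synthetases the median was -0.07 and none of 8 was called.

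The genes that act upstream or in neighbouring stress pathways were called at about the rate of all genes tested (7.57%). None of 13 eIF2 kinases and eIF2 control genes was called (median 0.00); their control acts on the protein, which was not measured. Of 14 endoplasmic reticulum chaperones and unfolded protein response genes tested, 1 was higher, Dnajc3 (0.69, SE 0.19, adjusted p = 0.0486, limma), with a median of 0.01. Of 11 NRF2 and glutathione genes, none was higher and 1 was lower, Gss, the glutathione synthetase (-0.78, SE 0.18, adjusted p = 0.0281, limma), with a median of -0.19. None of the 9 fibroblast markers tested and none of the 8 pluripotency markers was called.

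**Figure D3:**
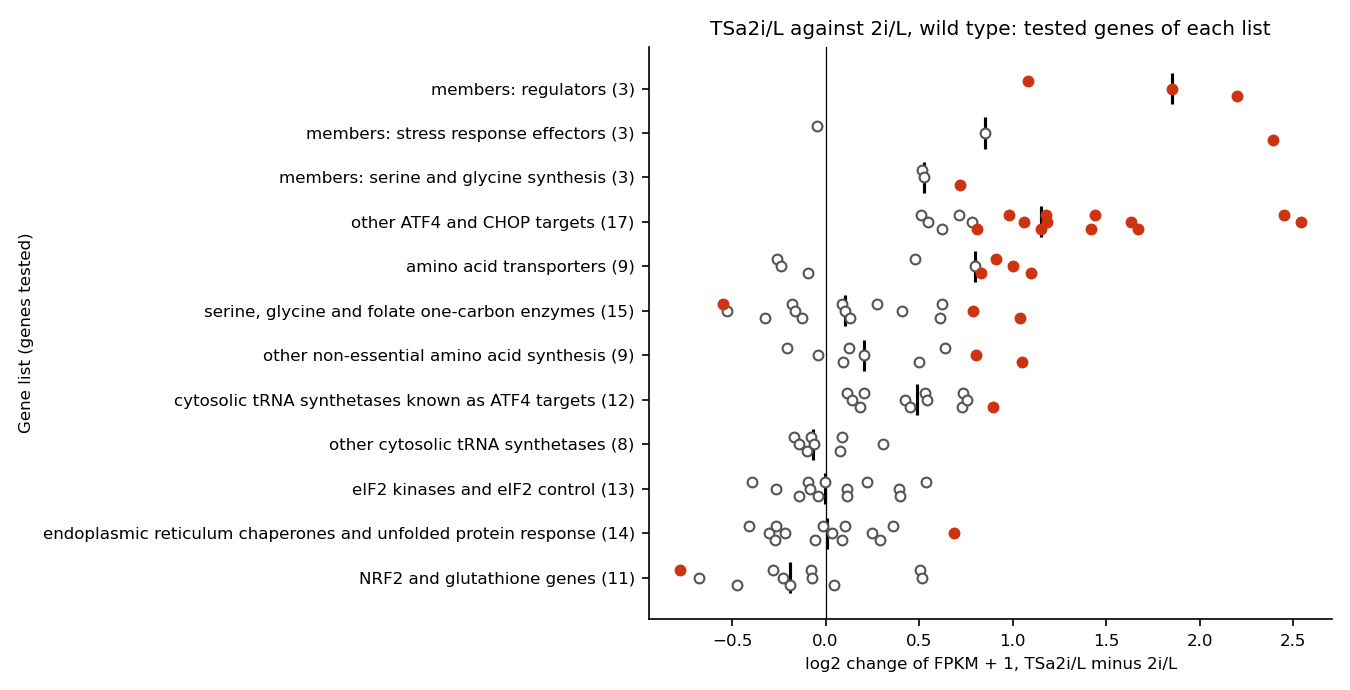
Log2 change of FPKM + 1 between TSa2i/L and 2i/L in wild-type lines for each tested gene of 12 gene lists (tested genes in brackets); filled red points have an adjusted p under 0.05, and vertical bars mark list medians. The list of other ATF4 and CHOP targets has 12 of 17 points filled and a median of 1.15, whereas the eIF2 and unfolded protein response lists are centred near 0.

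To follow a change of medium within a line, the 3 switched cultures were compared with the same lines in 2i/L, pairing by cell line; for wild type the control was p50 of 2i-14. This comparison shares 2i-14 p50 with the first. Of 9 genes tested, 1 was higher and 1 was lower after the switch. Over all 9759 genes tested, 6.89% were called, 2.22% higher and 4.66% lower. The median change of the 9 genes was 0.63 on the log2 scale, against -0.09 over all genes.

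Ddit3 was the higher one. It went from 26.0 to 110 FPKM in 2i-14, from 27.1 to 187 FPKM in 2i-O48 and from 53.1 to 379 FPKM in 2i-O48-TKO, which is 4.24-, 6.92- and 7.14-fold. All 3 pairs moved the same way, and the log2 change was 2.53 (SE 0.22, adjusted p = 0.00523, limma). The call held when any of the lines was left out, with adjusted p of at most 0.0151. The switched cultures had 1.83 times the mean Ddit3 level of the TSa2i/L lines, and only TSa2i-C57 p9 (290 FPKM) reached the range of the 2 DMR-deleted switched cultures.

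Asns was the lower one. It went from 1448 to 1029 FPKM in 2i-14, from 1246 to 828 FPKM in 2i-O48 and from 1303 to 832 FPKM in 2i-O48-TKO. Every switched culture was below every 2i/L library, but the switched 2i-14 was nearly level with 2i-14 p39 (1037 FPKM). The log2 change was -0.58 (SE 0.13), and its adjusted p of 0.0499 (limma) sat at the threshold: it was 0.450 without 2i-O48-TKO, 0.154 after median centring, 0.114 with 2i-14 p39 as the control and 0.0409 without 2i-14, whose switched library had the high summed FPKM.

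The other regulators and effectors were uneven between lines. Chac1 rose from 5.34 to 35.2 FPKM in 2i-14, from 25.1 to 34.8 FPKM in 2i-O48 and from 11.02 to 24.8 FPKM in 2i-O48-TKO. The switched values were alike and the starting values were not, and the log2 difference of 1.36 (SE 0.39) did not pass (adjusted p = 0.0900, limma). It passed with 2i-14 p39 (adjusted p = 0.0291), p18 (0.0455) or all 3 passages (0.0226, all limma) as control, and the difference fell to 0.78 without 2i-14.

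Atf4 went from 71.3 to 177 FPKM in 2i-14 and from 90.9 to 159 FPKM in 2i-O48-TKO, and was 126 FPKM both before and after the switch in 2i-O48. The 2i-14 fold of 2.48 is 1.38 when p18 or p39 is the starting point, since Atf4 was lowest at p50. The log2 difference of 0.70 (SE 0.27) did not pass (adjusted p = 0.1604, limma).

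Trib3 followed the same split, from 6.33 to 22.1 FPKM in 2i-14, from 9.46 to 25.8 FPKM in 2i-O48-TKO and from 15.1 to 12.0 FPKM in 2i-O48 (log2 difference 0.90, SE 0.39, adjusted p = 0.207, limma). The mean Trib3 level of the switched cultures was 0.433 of that of the TSa2i/L lines, and the highest switched value, 25.8 FPKM, was close to the lowest TSa2i/L value, 23.8 FPKM. Leaving out 2i-O48 brought the number of called genes from 2 to 6, with Atf4 (1.05, adjusted p = 0.00634), Trib3 (1.51, 0.00233), Chac1 (1.81, 0.00429) and Psat1 (0.79, 0.0195, all limma) added. That fit rests on 2 pairs. It called 1337 of all 9177 genes tested, against 672 of 9759 with all 3 lines. Over all genes, 1308 of 9303 were called without 2i-14 and 94 of 9120 without 2i-O48-TKO. Leaving out 2i-14 instead lowered the differences of Atf4 to 0.40 (adjusted p = 0.351), Trib3 to 0.53 (0.324) and Psat1 to 0.41 (0.296), and without 2i-O48-TKO they were 0.65 (0.574), 0.67 (0.675) and 0.68 (0.468, all limma).

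Sesn2 differed little, from 1.58 to 2.07 FPKM in 2i-14, from 1.83 to 1.31 in 2i-O48 and from 2.00 to 2.02 in 2i-O48-TKO (log2 difference -0.01, 95% interval -0.48 to 0.46, adjusted p = 0.976, limma). Its mean in the switched cultures was 0.374 of that in the TSa2i/L lines. Slc7a11 went from 0.0210 to 0.588 FPKM in 2i-14, from 0.0465 to 0.173 in 2i-O48 and from 0.00402 to 0.180 in 2i-O48-TKO. That is about 3.68, 8.62 and 0.696 fragments before the switch and 107, 30.01 and 28.1 after it. The fragment numbers of Slc7a11 take its longest transcript, of 9227 bases. All 8 libraries in SF/a2i/L were above all 5 in 2i/L for Slc7a11 and Ddit3, and for no other gene of the 10. Of the 10387 genes of the medium comparison, which leave out Slc7a11, 2.83% separated in the same way.

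The serine genes did not pass after the switch. Psat1 went from 185 to 388 FPKM in 2i-14, from 235 to 288 in 2i-O48 and from 221 to 317 in 2i-O48-TKO (log2 difference 0.63, SE 0.19, adjusted p = 0.110, limma). Phgdh went from 26.9 to 39.01, from 24.2 to 30.1 and from 36.2 to 41.4 FPKM in the same order (0.34, SE 0.19, adjusted p = 0.311, limma). Both were higher in all 3 pairs, as were Ddit3, Chac1 and Slc7a11. This was so for 19.4% of all genes tested, which leave out Slc7a11. Shmt2 went from 36.9 to 59.7 FPKM in 2i-14, but from 57.5 to 35.4 in 2i-O48 and from 66.5 to 44.5 in 2i-O48-TKO (-0.19, SE 0.30, adjusted p = 0.730, limma).

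**Figure D4:**
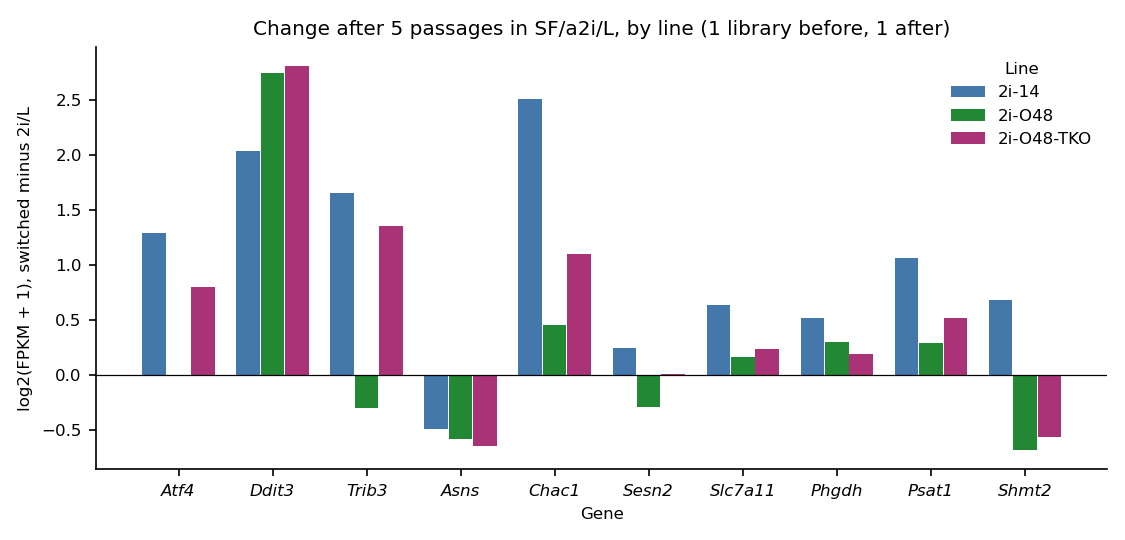
Difference of log2(FPKM + 1) between the switched culture and the same line in 2i/L, for each gene and line (1 library before and 1 after, so no error bar). The bars of Ddit3 are above 2 in all 3 lines and those of Asns are below 0 in all 3, while those of Trib3, Sesn2 and Shmt2 point both ways.

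In the wider lists, 2 of 14 other ATF4 and CHOP targets tested were higher after the switch and none was lower (median 0.68). They were Nupr1, at 658, 1268 and 1672 FPKM after 99.3, 151 and 277 FPKM (log2 change 2.79, SE 0.16, adjusted p = 0.00196, limma), and Gpt2 (1.01, SE 0.21, adjusted p = 0.0453, limma). Of the serine, glycine and folate enzymes 1 of 15 was higher, Psph, at 242, 231 and 202 FPKM after 88.4, 74.9 and 97.2 FPKM (1.37, SE 0.18, adjusted p = 0.0151, limma). Of the transporters 1 of 9 was lower, Slc7a6 (-1.14, SE 0.23, adjusted p = 0.0389, limma), and none was higher. Among the 9 other non-essential amino acid enzymes Ass1, the argininosuccinate synthetase, was lower (-0.95, SE 0.21, adjusted p = 0.04999, limma). Of 11 NRF2 and glutathione genes, 2 were lower, Gss (-2.31, SE 0.25, adjusted p = 0.0099, limma) and Nqo1 (-1.01, SE 0.18, adjusted p = 0.0306, limma). No tRNA synthetase, eIF2 gene or unfolded protein response gene was called.

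Passage was examined in TSa2i/L by setting TSa2i-14 p47, TSa2i-14 p54 and TSa2i-C57 p58 against TSa2i-14 p22 and TSa2i-C57 p9. None of the 10 genes was called, and limma called 0 of 10502 genes (0%), with 928 at an unadjusted p under 0.05. The median log2 change of the 9 genes was 0.29, against 0.09 over all genes. The 2 lines differed in the size of the changes, and for Ddit3 in the direction. In TSa2i-C57 Chac1 went from 15.4 FPKM at p9 to 95.7 at p58 (6.22-fold), Trib3 from 23.8 to 75.6 (3.18-fold), Sesn2 from 2.45 to 6.55 (2.67-fold) and Atf4 from 161 to 314 (1.95-fold), while Ddit3 went from 290 to 62.7 (0.216-fold). In TSa2i-14 the same genes at p47 and p54 stayed between 0.660- and 2.17-fold of p22. At p54 each was above p22 (Chac1 1.82-, Sesn2 1.41-, Atf4 1.31-, Trib3 1.17- and Ddit3 1.07-fold). At p47 Chac1 (0.730-fold), Trib3 (0.882-fold) and Sesn2 (0.660-fold) were below p22, and Atf4 and Ddit3 were above. Fibroblast markers summed to 47.8 FPKM in TSa2i-C57 p58 and 4.39 in p9, and to 151 in TSa2i-14 p54, 7.03 in p47 and 12.0 in p22. Their part in these differences was not tested.

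In 2i-14, 8 of the 10 genes were lowest at p50, Asns being highest there and Phgdh lowest at p39, with 1 library per passage and no test. Of the 10387 genes of the medium comparison, 45.9% were lowest at p50 as well, so the order is common in these libraries. Slc7a11 is not among those 10387 genes, and its p18 and p50 values rest on about 2.83 and 3.68 fragments. From p18 to p50 Trib3 went from 12.1 to 6.33 FPKM, Sesn2 from 2.99 to 1.58 and Shmt2 from 65.4 to 36.9.

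**Figure D5:**
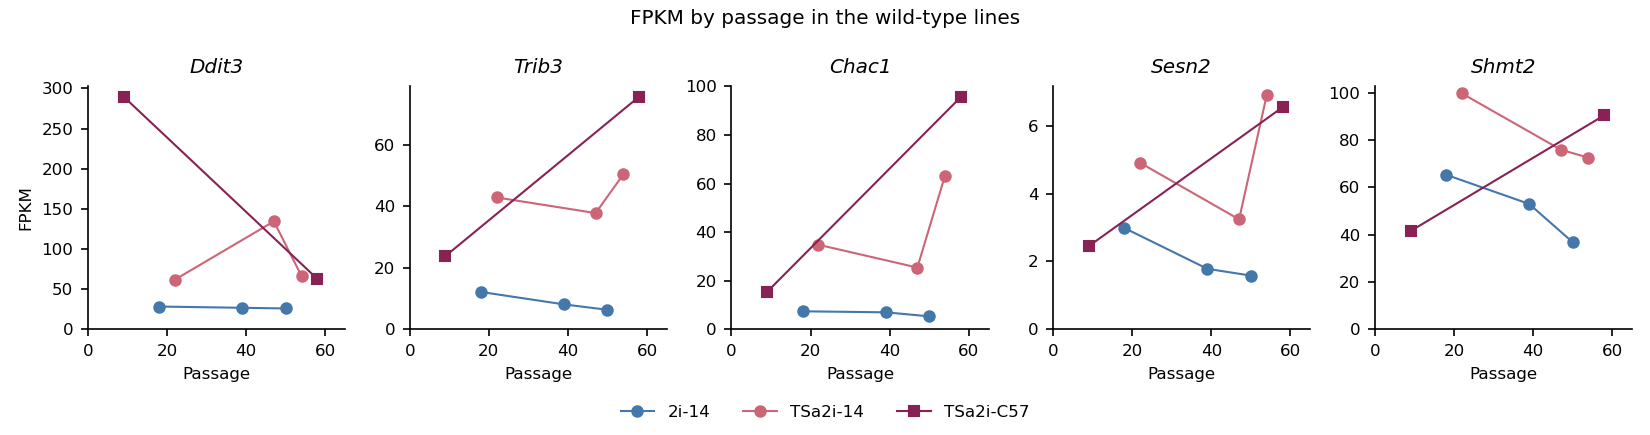
FPKM of 5 genes against passage in the wild-type lines; each point is 1 library and lines join the passages of a line. In TSa2i-C57 (squares) Ddit3 falls from 290 to 62.7 FPKM while Trib3, Chac1, Sesn2 and Shmt2 go up, and the 2i-14 points (blue) lie lowest at p50.

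The 2 DMR-deleted lines in 2i/L were compared with 2i-14 in 2i/L to see whether the deletions went along with a difference in these genes. Genotype and line cannot be told apart. None of the 9 genes tested was called, and 0.118% of the 10164 genes tested were. Chac1 had the largest difference, at 25.1 FPKM for 2i-O48 and 11.02 for 2i-O48-TKO against 5.34 to 7.41 FPKM in 2i-14 (log2 difference 1.24, SE 0.36, adjusted p = 0.479, limma). The others had log2 differences between -0.07 (Sesn2) and 0.48 (Ddit3). Ddit3 was 27.1 FPKM in 2i-O48, within the range of 2i-14, and 53.1 in 2i-O48-TKO. None of the wider lists had a called gene in this comparison or between passages.

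Across the 13 libraries, 8 of the 10 genes followed the mean level of the other 9. The Pearson correlation of each gene's log2(FPKM + 1) with the mean standardised level of the other 9 was 0.956 for Trib3, 0.876 for Atf4, 0.876 for Phgdh, 0.828 for Sesn2, 0.785 for Chac1, 0.765 for Slc7a11, 0.692 for Psat1 and 0.673 for Shmt2. It was 0.175 for Ddit3 and -0.10 for Asns. Between pairs of the 8, the correlation ran from 0.44 (Psat1 with Sesn2) to 0.95 (Trib3 with Atf4). These values describe 13 libraries that share lines and media, and carry no test. How many of all genes follow the same mean level as closely was not counted. The mean standardised level was highest in TSa2i-C57 p58 (1.09), TSa2i-14 p22 (1.03) and TSa2i-14 p54 (0.907) and lowest in 2i-14 p50 (-1.06) and p39 (-0.885). TSa2i-C57 p9 (-0.0566) lay closer to the switched 2i-O48-TKO (0.00822) than to the other TSa2i/L libraries.

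Among 6210 genes outside the lists with a mean of at least 5 FPKM, the 4 most alike to this mean level over the 13 libraries were Mid1ip1 (Pearson r 0.940), Ccdc130 (0.922), Bin3 (0.918) and Arl15 (0.910). Mid1ip1, which promotes the activity of acetyl-CoA carboxylase, was 4.70 to 8.62 FPKM in 2i-14 and 13.8 to 25.1 FPKM in TSa2i/L. The ranking was made on the same libraries and says nothing of shared control.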

How the data were processed

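Polyadenylated RNA of sorted haploid cells was amplified as full-length cDNA and sequenced on an Illumina HiSeq system. The FPKM values deposited by the authors come from TopHat alignments to mm9 and Cufflinks; the submitters' processing notes list TopHat2 2.0.11, Bowtie2 2.2.2 and Cufflinks 2.2.1, and the gene annotation and the treatment of multi-mapped reads are not given in the sources used here. As FPKM are no counts, count models were not used. Of 41 samples, the 13 RNA-seq libraries were used.

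Rows that share a symbol were summed. Comparisons were fitted with limma 3.58.1 (R 4.3.3) with an intensity trend on log2(FPKM + 1), which understates changes of low genes, with Benjamini-Hochberg adjustment over all genes tested at 0.05. Genes with 1 FPKM in at least 3 libraries were tested in the medium and switch comparisons, and in at least 2 in the passage and deletion comparisons. Early means below passage 30. The fits were tested on simulated data with the means and spreads of these libraries, 200 genes being changed by a log2 change of 1 or 2. The changed genes were drawn from those with a mean log2(FPKM + 1) above 2, so lower genes are not covered. At 1, the share called was 73% for medium, 57% for the switch, 48% for passage and 17.5% for deletion. At 2 it was 97.5% or more. Unchanged genes made up 0 to 9.52% of the calls in the simulation. Its noise was drawn for each library separately, while libraries of 1 line are passages of the same culture. These shares therefore need not hold for the real calls. Genes not called, above all by passage and deletion, may thus still differ by a log2 change of 1. The switch fit had the cell line, taken from the labels, as a block; deviations of the 2 libraries of a line correlated at 0.172 for 2i-14, -0.141 for 2i-O48 and 0.358 for 2i-O48-TKO over 9759 genes. The labels do not name the control of the switched 2i-14, and p50, the latest passage, was used. Depth was estimated from the smallest steps of FPKM over 3520 genes with 1 annotated transcript; intervals cover the spread between libraries only.

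The genes, lists and tests were chosen with earlier results of these data known. Named beyond the 10 genes are, per list and comparison, up to 3 called genes with the largest change, and the 5 genes most alike, of which 1 is not reported here; Mars and the other overlapping genes were named after their positions were seen. Positions are from GENCODE vM1 (NCBIM37) and promoter sequences from RefSeq (GRCm38.p6); the builds were not mixed. Other settings tried were a pseudocount of 0.1, no filter or a minimum mean of 5 FPKM, other scaling, the trend, repeated symbols, each library or line left out, other controls, the block and fibroblast RNA.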

Additional observations from a re-analysis of the deposited data

Results flagged for a closer look

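In 5 TSa2i/L libraries, the Asns level of TSa2i-14 p22 (1483 FPKM) lay far from the other 4 (1107 to 1162 FPKM): its gap took 0.8525 of the whole range, above the limit of 0.71 for 5 samples. With 10 genes checked, chance gives about 0.5 such case.

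Late against early passages, 4 genes moved one way in TSa2i-C57 and the other way in both late libraries of TSa2i-14. On the log2(FPKM + 1) scale Ddit3 changed by -2.191 in TSa2i-C57 and by 1.11 and 0.10 in TSa2i-14, Phgdh by 0.3482 against -0.15 and -0.29, Psat1 by 0.3836 against -0.63 and -0.66, and Shmt2 by 1.105 against -0.39 and -0.45. After the switch, Shmt2 changed by 0.6823 in 2i-14 and by -0.68 and -0.57 in 2i-O48 and 2i-O48-TKO. Each of these rests on 1 starting library per line, and the differences were not tested. How many of all genes move in opposite ways like this was not counted.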

How the results depend on the processing

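Of the changes of single genes in the medium comparison, 61 of 72 with 1 library left out and 89 of 98 under other settings kept their direction and side of the threshold; after the switch these were 20 of 27 and 85 of 98. The number of the 10 genes called, 5, was 2 without a filter on low values and 2 without the 3 libraries with fibroblast RNA, and 2 to 6 with 1 library left out. After the switch the number was 2, and it was 1 with a pseudocount of 0.1, 0 without a filter (where limma called 0 genes, 3206 at an unadjusted p under 0.05), 1 at a mean of at least 5 FPKM, 1 after median centring, 1 without the trend and 1 to 6 with 1 line left out. Without a filter more genes are tested; the cause of the other moves was not tested. For passage and deletion it was 0 throughout.

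Without the replicate block on cell line, limma called 778 genes after the switch in place of 672, and the same numbers of the 10 genes (1 higher, 1 lower); with a replicate block on the cell line the passage comparison stayed at 0. No paired analysis was possible for the medium and deletion comparisons because their groups share no line.

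Signs turned for values near 0: Asns between media with TSa2i-14 alone (0.00090), Sesn2 after the switch with median centring (0.15) or quantile normalization (0.10), Phgdh by passage with median centring (-0.074), Psat1 by passage number (0.0013 per 10 passages), and Atf4 (-0.042) and Asns (-0.020) by deletion with median centring, Asns also without 2i-14 p39 (-0.088). With 1 library or line left out the ranges were -0.17 to 0.068 for Asns between media, -0.14 to 0.13 for Sesn2 and -0.63 to 0.056 for Shmt2 after the switch, -1.80 to 0.41 for Ddit3, -0.20 to 0.29 for Phgdh, -0.63 to 0.35 for Psat1 and -0.33 to 0.92 for Shmt2 by passage, and -0.26 to 0.25 for Atf4, -0.09 to 0.15 for Asns, -0.19 to 0.12 for Sesn2 and -0.19 to 0.37 for Phgdh by deletion.

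Over all genes, the medium comparison called 786 (594 higher, 192 lower), and 359 higher and 280 lower after median centring, which moved the median change from 0.07 to -0.05; Ddit3 then had an adjusted p of 0.0568 (limma). It called 374 without a filter, 458 at a mean of at least 5 FPKM, 468 with TSa2i-14 alone, 1316 with both DMR-deleted lines added to 2i/L, 137 without the 3 libraries with fibroblast RNA and 299 to 846 with 1 library left out. After the switch 672 (217 higher, 455 lower) became 386 higher and 314 lower after median centring, 369 in all at a mean of at least 5 FPKM, 1522, 1483 and 1505 with p39, p18 or all of the 2i-14 passages as controls, and 94 to 1337 with 1 line left out. The passage comparison called 0 to 8 genes and the deletion comparison 1 to 20 with 1 library left out, and 0 without a filter (1014 at an unadjusted p under 0.05). Depth limits Slc7a11, at under 10 fragments in the 5 libraries in 2i/L.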
